A study of Sus scrofa domesticus with 16 samples.

Results

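BCAT2 and ACADSB encode mitochondrial enzymes that act at different steps in the breakdown of leucine, isoleucine and valine, and each carried 1 differentially methylated site (DMS) in the lung of pigs given an increased dose of cholecalciferol (vitamin D3). Both sites were hypermethylated with the increased dose, by 64.5 percentage points in BCAT2 and by 63.1 points in ACADSB. The members were chosen by gene symbol after their differences were known. They are therefore 2 of the 2349 sites, and 2 of the 898 gene symbols, in the authors' deposited table, and their sizes are given as a description without a test. Lung DNA of 16 pigs was read by reduced representation bisulfite sequencing, a method that measures cytosine methylation near CCGG, where the enzyme MspI cuts. The increased dose group had 8 animals (4 males and 4 females), given cholecalciferol at 3000 IU/kg in the grower feed and then at 2500 IU/kg in the finisher feed. The standard dose group had 8 animals with the same number of each sex, given 2000 and 1500 IU/kg. Both groups received the same feed apart from cholecalciferol, and lung samples were taken at slaughter when the pigs had reached their final weight. The sources used here do not give the breed or the age. All differences are read as increased minus standard dose, a direction that the table's header does not state. The listed values are those of the authors' comparison of both groups, so no level per animal, spread between animals or read depth can be given for any value below. Bulk tissue from the middle of the left upper lung lobe was used. A change in the mix of cell types cannot be told apart from a change within cells.

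Branched-chain amino acids are essential nutrients that are broken down in mitochondria, in large part outside the liver. BCAT2 removes the amino group and hands it to 2-oxoglutarate, which gives glutamate and a branched-chain keto acid, and this step is reversible. A dehydrogenase complex then commits the keto acid to breakdown. ACADSB, the short/branched chain acyl-CoA dehydrogenase, carries out the next oxidation in the isoleucine arm. Methylation of a cytosine before a guanine (CpG) inside an intron has no fixed relation to the output of a gene, and expression was not analysed here.

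The sequence around both sites is shown because part of it can be aligned between the genes. Each line gives 102 bases of Sscrofa11.1 as held by RefSeq, with the CpG of the DMS in capitals.
BCAT2 site (chr6:54115878-54115979, + strand): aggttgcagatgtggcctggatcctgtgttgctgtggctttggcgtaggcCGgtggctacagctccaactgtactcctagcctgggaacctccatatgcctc
ACADSB site (chr14:132569899-132570000, + strand): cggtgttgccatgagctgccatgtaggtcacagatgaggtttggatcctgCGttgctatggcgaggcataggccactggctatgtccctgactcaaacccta
The BCAT2 window and the ACADSB window aligned with each other over 59 columns, of which 46 (78%) were identical, in the same orientation on the + strand. Positions are counted from 1 at the 5′ end of the BCAT2 window, and the BCAT2 base is written before the position. The cytosine of the ACADSB site fell on the substitution T27C, so the CpG measured in ACADSB is not a CpG in the BCAT2 copy. The CpG measured in BCAT2 starts at position 51 and carries the substitution G52A, so it is not a CpG in the ACADSB copy. The aligned stretch held 12 substitutions and 1 gap column. The methylation values therefore came from different CpGs. In the genome-wide search described further on, the ACADSB site was not among the stretches found with the BCAT2 window, so the likeness rests on this pairwise alignment alone.

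The BCAT2 site lay on chromosome 6 at 54115928, in a gene on the minus strand between 54107682 and 54123595. It was intronic in all 7 annotated transcripts, in intron 3 of 4 transcripts and intron 4 of 3 transcripts, and this intron has 5151 bp in the annotation after merging the exons of all transcripts. The nearest exons were 2243 and 2909 bp away, and the annotated gene start lay 7667 bp upstream in the direction of transcription, or 48.2% of the gene length of 15914 bp. The ACADSB site lay on chromosome 14 at 132569949, in a gene on the plus strand between 132563002 and 132607574. In its single annotated transcript the site was in intron 1, which spans 24610 bp, at 6537 bp from exon 1 and 18074 bp from the next exon. The distance from the annotated gene start was 6947 bp, or 15.6% of the gene length of 44573 bp. Both sites were thus about as far from the gene start in bases, although the genes differ in length. Of the 2252 listed sites on chromosomes, 1305 (57.9%) were intronic in RefSeq. Between the DMSs on either side of the BCAT2 site, 167224 bp apart, another 217 numbered rows of the authors' table were passed over, and between those on either side of the ACADSB site, 545378 bp apart, another 146. If these rows are the sites that were compared, as their numbering implies, the table lists at most 0.352% of all compared sites. The highest row number among the listed sites is 667810, and rows beyond it would not be seen.

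**Figure D1:**
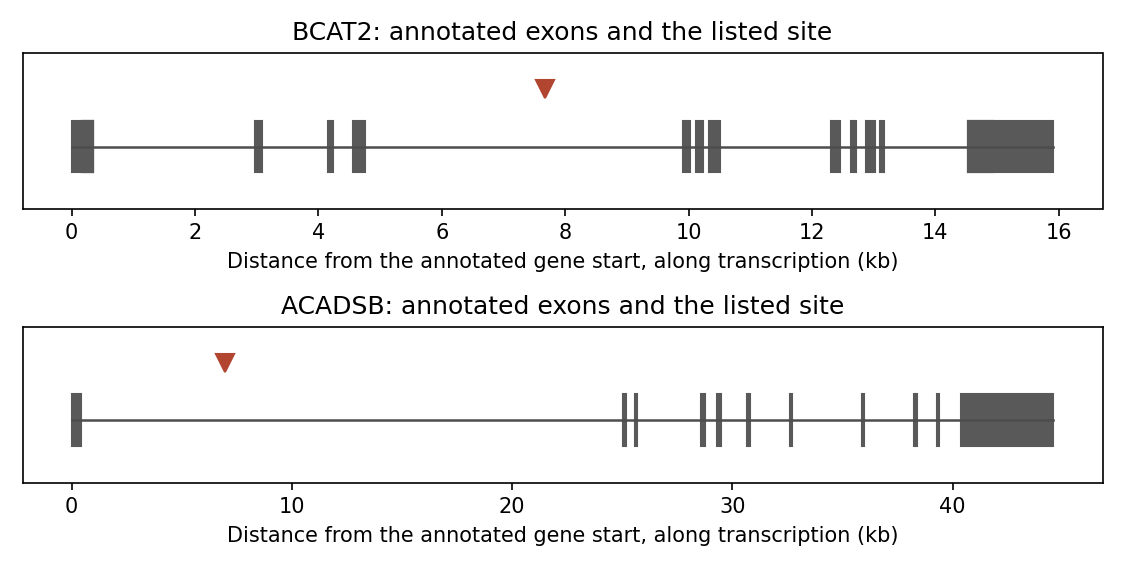
Maps of BCAT2 (top) and ACADSB (bottom), with distance from the annotated gene start along transcription in kb on the x axis, exons of all annotated transcripts as boxes and the DMS as a triangle. The site lies 7667 bp from the gene start in BCAT2 and 6947 bp in ACADSB, in an intron in both genes.

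In size, the BCAT2 difference ranked 2 and the ACADSB difference ranked 5 among the 1394 hypermethylated sites in the authors' deposited table. Counted with the 955 hypomethylated sites, they ranked 2 and 9. Hypermethylated sites made up 59.3% of the table, and their median was 30.7 points, about as large as the median of the hypomethylated sites at -29.8 points. The next larger gain than that of BCAT2 was 66.3 points at a site assigned to U6 on chromosome X, and the next smaller gain was 63.3 points at a site assigned to CST9L on chromosome 17. Just above ACADSB stood GRIN2D, an NMDA receptor subunit, with 63.1 points. Just below stood a site on chromosome 10 with 62.9 points and no gene symbol, and the next gain was 59.7 points at another site of chromosome 6. Gains of at least 60 points numbered 6 in the whole table, and BCAT2 and ACADSB held 2 of them. This limit falls between the gains of 62.9 and 59.7 points. The members were chosen with their differences known, so their share of the 6 is only a description. The q-values differed more than the sizes. The BCAT2 site had a q-value of 3.6e-207, which ranked 3 of all sites, whereas the ACADSB site had 9e-55 and ranked 182. Read depth enters a q-value, and depth at these sites was not analysed here. The sources used here do not say how the comparison treated variation among the pigs of a group.

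**Figure D2:**
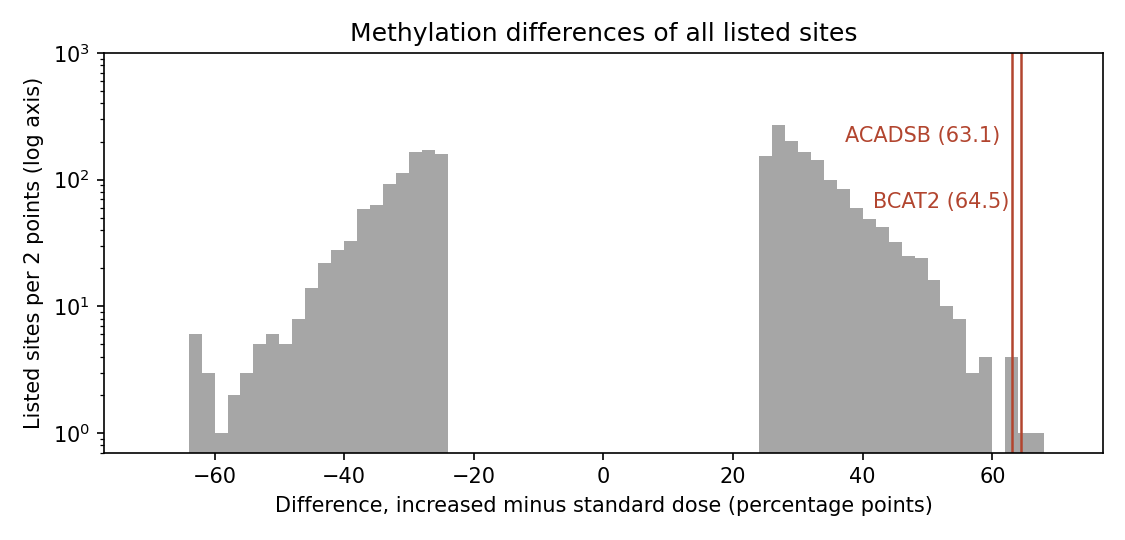
Histogram of all 2349 listed sites by their difference in methylation (x axis, percentage points, increased minus standard dose), with the number of sites per bin on a log axis. The vertical lines mark ACADSB at 63.1 points and BCAT2 at 64.5 points, both at the far right of the gains. The gap around 0 is the authors' limit of 25 points.

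The BCAT2 site was the CpG of an MspI cut itself, so that it formed the first base pair of a predicted fragment of 287 bp, and 183 of 2252 listed sites (8.13%) lay in such a position. The ACADSB site lay 50 bp inside a predicted fragment of 257 bp. The median predicted fragment over the listed chromosomal sites was 280 bp. Neither site was in CpG-dense sequence. In the 201 bp centred on the site there were 5 CpGs at BCAT2 and 3 at ACADSB, and the median over the listed chromosomal sites was 9. The ratio of observed to expected CpGs was 0.395 at BCAT2 and 0.215 at ACADSB, and the median was 0.612. Only 2% of the listed chromosomal sites had a lower ratio than ACADSB, and 15.4% had a lower one than BCAT2. The GC content, at 51.2% for BCAT2 and 52.7% for ACADSB, was near the median of 53.7%.

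Both sites lay in sequence that RefSeq marks as repeated (soft-masked). The predicted fragment was soft-masked over 92.7% of its length at BCAT2 and over 68.9% at ACADSB. A BLAST search with the BCAT2 window found 417464 similar stretches elsewhere in the genome at an e-value of 1e-10 or below. Of these, 345484 covered at least 90% of the window. Only 1 of them reached 95% identity, and it had 97%. The ACADSB window found 9272 similar stretches, the best of those that covered 90% of it at 84% identity. The sources used here do not name the repeat family. BSMAP was used by the authors for mapping, and how often reads from such copies were placed at the wrong one was not tested.

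Of all 2252 listed chromosomal sites, 1429 (63.5%) were in soft-masked sequence, compared with 24.7% of the reference CpGs in MspI fragments of 40 to 400 bp and 33.9% of all reference CpGs. Stretches similar to the BCAT2 window held 523 listed sites (23.2%), compared with 6.44% of the fragment CpGs and 5.19% of all reference CpGs. The BCAT2 site itself was among the 523 and the ACADSB site was not. At an e-value of 1e-20 the shares were 14.1%, 4.78% and 2.94%. Of the 523 sites, 301 (57.6%) were hypermethylated, so not all shared the direction of BCAT2. This is near the 59.3% of all listed sites and is no result about these stretches. Sites of at least 50 points were about as often in soft-masked sequence, with 41 of 67. These shares are descriptions, and the listed sites were not limited to fragments of 40 to 400 bp. The CpGs that the libraries covered were not analysed here, and the part of mapping or of coverage in the shares was not tested.

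**Figure D3:**
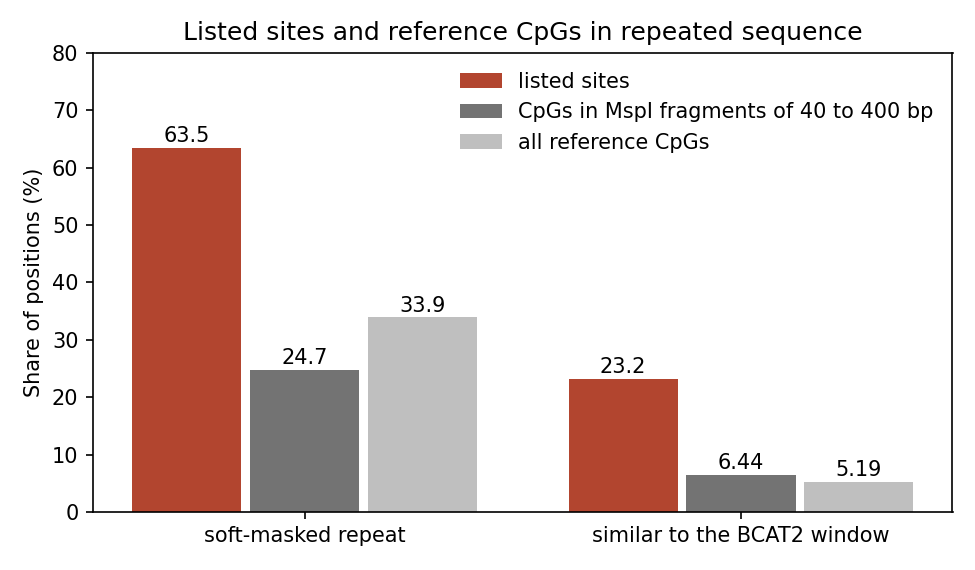
Bars give the percentage of the 2252 listed chromosomal sites, of reference CpGs in MspI fragments of 40 to 400 bp and of all reference CpGs that lie in soft-masked repeats (left) and in stretches similar to the BCAT2 window (right). Listed sites were at 63.5% and 23.2%, above both sets of reference CpGs.

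The nearest DMSs differed between both genes. Around BCAT2 the closest sites lay downstream of the 3′ end of the gene and none had a gene symbol. The sequences of the nearest 2 are shown because one lies in a stretch similar to the BCAT2 window and the other does not.
site 13862 bp from the BCAT2 site (chr6:54102016-54102117, + strand): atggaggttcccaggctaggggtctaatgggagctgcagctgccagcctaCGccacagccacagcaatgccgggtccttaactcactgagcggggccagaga
site 14634 bp from the BCAT2 site (chr6:54101244-54101345, + strand): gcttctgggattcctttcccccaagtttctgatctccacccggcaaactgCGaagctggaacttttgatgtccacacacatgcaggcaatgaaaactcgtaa
At 54102066, 13862 bp from the BCAT2 site and 5616 bp beyond the gene end, the deposited difference was -57.7 points (q = 6.3e-174), a loss with the increased dose. This window aligned with the BCAT2 window on the opposite strand over 77 columns with 81.8% identity, and its CpG fell on a CpG of the BCAT2 copy at position 44, which is a different CpG from the one listed in BCAT2. At 54101294 the authors' deposited table gives a gain of 50.6 points (q = 8.3e-25) in sequence that was not soft-masked and had 0 similar stretches elsewhere. The next site at 54095826, 20102 bp away, was at -25.9 points. These are all the sites within 100 kb, so 1 of the 3 nearest shared the direction of BCAT2. On the other side the nearest site, assigned to the neurotrophin gene NTF4 and 4 bp from LHB in RefSeq, lay 153362 bp away with 47.9 points. Then came LIN7B, a scaffold protein gene, at 188912 bp with 53.8 points, an intronic site of a gene without a name at 278471 bp with -61 points, and a pair of sites in SCAF1 at 576737 and 576782 bp with -63.5 and -60.3 points. In the other direction CYTH2, an exchange factor for ARF GTPases, was at 241191 bp with 33.8 points and GRIN2D at 280400 bp with 63.1 points. The genes on both sides of BCAT2, HSD17B14 (a 17-beta hydroxysteroid dehydrogenase, 1634 bp away) and FGF21 (a metabolic hormone, 23150 bp away), held 0 listed sites.

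Around ACADSB the nearest sites were a pair that lay 67803 and 67858 bp downstream, in intergenic sequence. They are shown because they are close together and opposite in direction.
site 67803 bp from the ACADSB site (chr14:132637702-132637803, + strand): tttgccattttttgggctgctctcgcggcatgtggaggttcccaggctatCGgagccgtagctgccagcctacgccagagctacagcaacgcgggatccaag
site 67858 bp from the ACADSB site (chr14:132637757-132637858, + strand): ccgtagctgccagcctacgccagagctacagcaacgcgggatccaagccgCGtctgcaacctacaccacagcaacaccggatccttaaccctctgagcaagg
At 132637752 the authors' deposited table gives -26.7 points and at 132637807 it gives 28.6 points, with q-values of 4.8e-33 and 1.1e-31. Both windows aligned with the BCAT2 window on the opposite strand, with 77.1% and 83.3% identity over 83 and 60 columns. The windows overlap, and their CpGs fell on positions 66 and 11 of the BCAT2 window, so they are not separate stretches. In the other direction the nearest DMSs were 3 sites of HTRA1, a secreted serine protease, at 477575, 490715 and 490823 bp, with gains of 37, 27.9 and 32.5 points. PLEKHA1, a phosphoinositide-binding adaptor, followed at 600990 bp with 29 points and BTBD16 at 658083 bp with 32.5 points. CHST15, a sulfotransferase of chondroitin sulfate synthesis, was at 925467 bp with 27 points, and a pair of sites in FANK1 was at 2704062 and 2704084 bp with 33.3 and 26.1 points. The ACADSB gain was the largest of its neighbourhood, with no other site of at least 50 points within 1 Mb. The gene start of ACADSB overlaps that of IKZF5, a zinc finger transcription factor gene on the other strand, by 249 bp, and IKZF5 held 0 listed sites.

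Within 1 Mb of BCAT2 there were 27 other DMSs, 16 gains (59.3%) and 11 losses. Their median size was 50.6 points, and 14 (51.9%) were of at least 50 points, whereas 3.11% of all listed sites were as large. Within 1 Mb of ACADSB there were 11 other DMSs, 9 gains (81.8%) and 2 losses, with a median size of 32.5 points and a range of -36.4 to 48.7 points. Sites close together share reads and animals, and the difference between the neighbourhoods was not tested. The stretches from the outermost listed sites within 1 Mb covered 2718 numbered rows of the table around BCAT2 and 795 around ACADSB, and 1.03% and 1.51% of these rows were listed. Over the whole table the share was at most 0.352%. The shares cannot be compared directly, because each stretch includes the member site and begins and ends on a listed site, which raises its share. They also assume that the row numbers are ranks among compared sites.

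**Figure D4:**
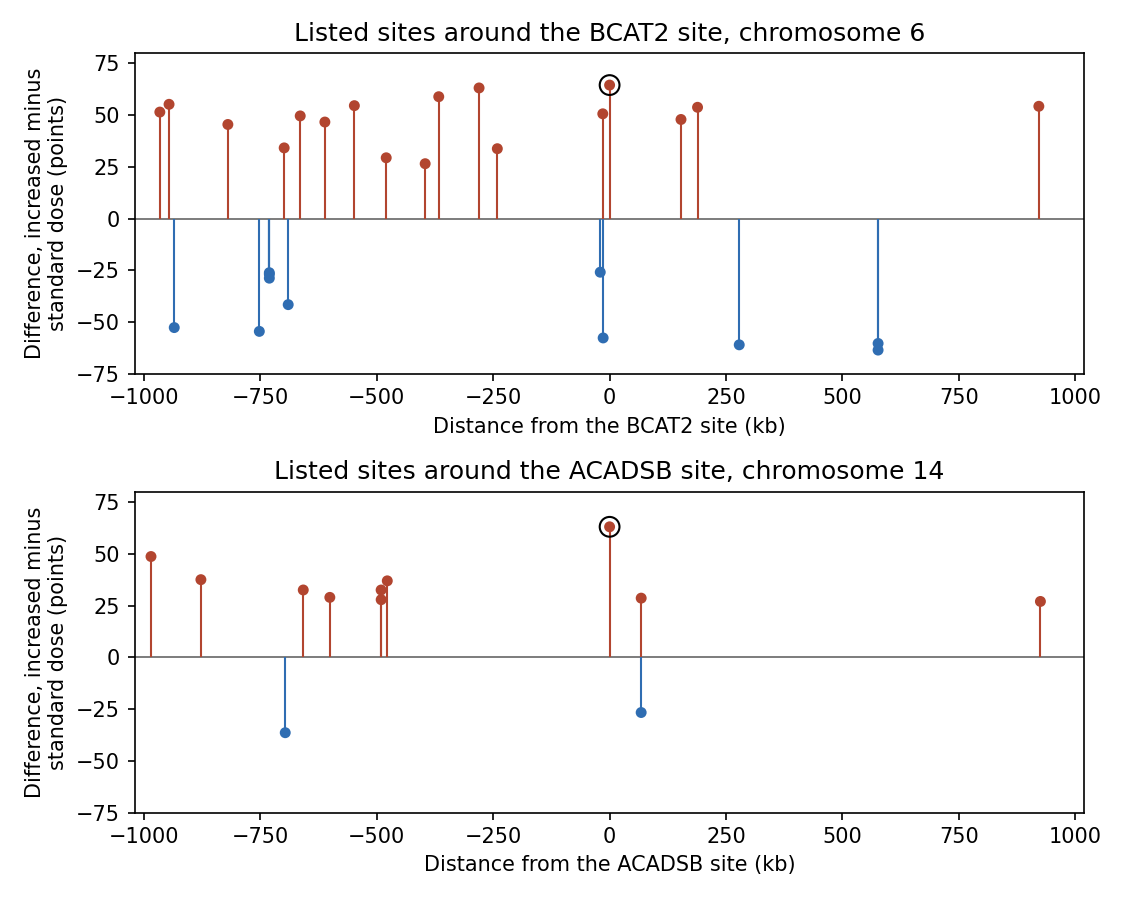
The y axis gives the difference in methylation (percentage points, increased minus standard dose) of every listed site within 1 Mb of the BCAT2 site (top) and of the ACADSB site (bottom), by distance in kb on the x axis. The circled points are the member sites at 64.5 and 63.1 points. Gains and losses of over 50 points surround BCAT2, and 9 of the 11 other sites around ACADSB are smaller gains.

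The other genes of the pathway were taken from a list of 34 genes of branched-chain amino acid breakdown and transport, of which RefSeq holds 32 as coding genes on chromosomes. By the authors' gene symbols, BCAT2 and ACADSB were the only ones with a DMS. By RefSeq gene bodies there were 3, or 2 gained and 1 lost, and 4.61% of all 19560 coding genes held a listed site in their body. With 2 of the 3 being the genes for which the list was made, the count says nothing about the pathway. The other was SLC3A2, the heavy chain that brings amino acid exchangers of the cell surface into place. An intronic site at 8917581 on chromosome 2, which the authors' deposited table assigns to SNORD30, was at -26.3 points (q = 1.3e-06), 1489 bp from the gene start. BCAT1, the cytosolic enzyme of the same reaction as BCAT2, had its nearest DMS 2983454 bp away. No DMS lay in or within 5 kb of the 6 genes of the keto acid dehydrogenase complex and its regulators (BCKDHA, BCKDHB, DBT and DLD, the kinase BCKDK and the phosphatase PPM1K), where the nearest, at PPM1K, was 318411 bp away. The same held for IVD and ACAD8, the acyl-CoA dehydrogenases of the leucine and valine arms, the 4 later genes of the leucine arm, the 9 of the isoleucine and valine arms and the 5 mapped ones of the propionate arm. Over all 32 genes, those with a site counted at 0, the nearest DMS lay at a median of 532 kb, compared with a median of 423 kb for all coding genes counted the same way. None of the 8 other acyl-CoA dehydrogenases, such as ACADM and ACADVL of fatty acid oxidation, had a DMS within 5 kb. Of all coding genes 5.71% had one at that distance, so a count of 0 in lists this short is near the background and is no result about these genes. Genes without a listed site may still have been covered, and whether they were was not analysed here.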

How the data were processed

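Lung DNA of 16 pigs was used, 8 with the increased and 8 with the standard dose, grouped by the treatment label. The authors checked reads with FastQC, trimmed them with FlexBar and mapped them to Sscrofa11.1 using BSMAP with the MspI site given. CpGs needed over 5 reads. Groups were compared in methylKit 1.26.0 (version from the submitters' processing notes), with limits of 25 points and a q-value of 0.05. The deposited table holds methylKit's p-values and q-values, computed by the authors. Its signed difference is a deposited score in percentage points, taken here to be positive where the increased dose group was higher, as methylKit reports treated minus control. These columns are the authors' own comparison and the table has no values per animal, so depth is unknown and no test or interval over animals could be made. The only intervals were binomial ones over listed sites, used below to compare processing choices.

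Rows with the symbols BCAT2 and ACADSB were taken, with the 5 nearest listed sites on either side. RefSeq gene models of Sscrofa11.1 were read with Python 3.11.15, pandas 2.3.3 and pysam 0.24.0, and all 2252 chromosomal positions fell on a reference CpG. The row numbers of the table were taken as ranks among compared sites, which is an assumption. In all 20 gaps to the neighbours of both genes they stepped by no more than the reference CpGs between. The CpGs far outnumbered the rows, with 591 CpGs and 65 rows up to the site at 54095826. Many other numberings would pass this check too. Predicted fragments ran from CCGG to CCGG. Windows of 102 bases were searched against the genome with blastn 2.17.0 (word size 15, no low-complexity filter) and aligned with Biopython 1.88. The functions were tested on simulated data. Genes named were both members, the symbols of their 5 nearest sites on each side, pathway genes with a listed site and the gains next in size; other names were given after their values were seen. The members, the gene list and these choices were made with earlier results of these data known, and the repeat search was added after the sequences had been seen. MMAA and SLC7A5 were not found as coding genes on RefSeq chromosomes. Alternatives were other gene assignments, at least 30 points, a q-value under 1e-10, sites up to 100 bp apart counted as 1, and windows of 500 kb and 2 Mb.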

Additional observations from a re-analysis of the deposited data

How the results depend on the processing

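Of 15 alternatives, 13 left a count within 1.5 times its main value, or a share within the binomial interval of its main value. The interval had a confidence level of 0.95 and took sites as independent, although close sites share reads and animals. The windows for the share of gains also overlap, so a share within the interval is not shown to be stable. The count of pathway genes with a listed site was 2 by the authors' symbols, at 30 points and at a q-value under 1e-10. It was 3 by RefSeq gene bodies, with or without 5000 bp to each side. The limits of 30 points and 1e-10 could not change this count. Both members, the only list genes by symbol, were known to lie far beyond these limits. These alternatives are still among the 13, and the count of 3 lies exactly at 1.5 times the main value. The number of sites within 1 Mb of ACADSB fell to 6 at 30 points, against 11 in the whole table. The share of listed sites in stretches similar to the BCAT2 window was 14.1% at an e-value of 1e-20 and 23.2% at 1e-10, an alternative chosen after seeing the data. No paired analysis was possible because the table holds no values per animal, and for the same reason no animal could be left out and no other coverage minimum could be tried. Each gene rests on 1 CpG.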
